A study of Mus musculus with 6 samples.

Results

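The epidermal growth factor (EGF) receptor family and its ligands were examined in EO771 cells, a mouse mammary carcinoma line, by RNA sequencing. The members were 6 ligand genes (Areg, Ereg, Hbegf, Tgfa, Btc and Epgn), 3 receptor genes (Egfr, Erbb2 and Erbb3) and the receptor inhibitor gene Errfi1. They were chosen by gene symbol, with earlier results of these data known, and all 10 were among the 49523 symbols of the count table. Of these, 8 passed the low-count filter, which left 17630 genes to be tested, while Ereg and Epgn did not pass it. The samples were 3 libraries of cancer stem cells (CSC) and 3 libraries of cells labelled as not being cancer stem cells (non-CSC), all of the same line with no treatment or genotype given. Neither the way the CSC were isolated nor the origin of the replicates (separate cultures or not) is stated, so a p-value here speaks only of the variation among these 6 libraries, which may be technical.

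EGF family ligands are made as membrane-anchored precursors that proteases of the ADAM family cut to release the active factor. A released ligand brings receptors together in pairs, which switches on the receptor kinase and, below it, the RAS-ERK, PI3K and PLC-gamma pathways. In the mouse mammary gland, amphiregulin, the product of Areg, is known as the EGFR ligand that acts downstream of the oestrogen receptor in the growth of the ducts.

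The libraries held 27099879 to 28205651 counts in CSC and 32204112 to 35971131 counts in non-CSC. Epithelial and mesenchymal genes were both present, and within each list the genes moved in both directions. The 5 epithelial markers summed to 3107 to 3257 CPM (counts per 1e6 counts, TMM-scaled) in CSC and 2446 to 2563 CPM in non-CSC. Krt7 and Krt8 rose by 1.08 and 0.27 on the log2 scale, Epcam fell by 1.05, and Krt18 and Cdh1 were not called, with Cdh1 at 0.752 CPM in CSC and 0.952 CPM in non-CSC. The 4 mesenchymal markers summed to 3614 to 3901 CPM in CSC and 3850 to 4060 CPM in non-CSC, with Cdh2 and Fn1 higher by 0.24 and 0.098 and log2 fold changes of -0.55 for Vim and -0.31 for Zeb1. Of 7 immune marker genes, Cd3e, Adgre1 and Ms4a1 were at 0 in every library and 5 stayed under 1 CPM. Their summed level was 18.0 to 18.7 CPM in CSC and 2.48 to 2.86 CPM in non-CSC, nearly all from Itgam and Csf1r. The 4 endothelial markers summed to 0.389 to 0.517 CPM in CSC and 0.481 to 0.797 CPM in non-CSC. The 4 fibroblast and pericyte markers summed to 1195 to 1242 CPM in CSC and 555 to 589 CPM in non-CSC, nearly all from Dcn, with Lum at 0 throughout. Among the fat markers Plin1 was at 0, and the pair summed to at most 0.0345 CPM in CSC and 0.0288 CPM in non-CSC. The part of these markers in the results on the EGF family was not tested.

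Areg and Btc were 8.34-fold and 7.82-fold lower in CSC, Hbegf and Erbb3 fell less, Errfi1 fell slightly, Egfr and Tgfa rose, and Erbb2 was not called. By edgeR's quasi-likelihood test, with Benjamini-Hochberg adjustment over all genes tested and a threshold of 0.05, 2 members were higher and 5 lower in CSC. Across the 17630 genes tested, 66.5% passed the same threshold, 33.4% as higher and 33.1% as lower, so a share of 7 of 8 lies not far above that of all genes. Falls of at least 2-fold were rarer, at 4.09% of the genes tested, and Areg and Btc were in that class. No member rose by 2-fold, as 8.01% of the genes tested did. The CSC and non-CSC libraries did not overlap for 7 of the 8 members, against 69.3% of all genes tested. The median log2 fold change of the 8 tested members was -0.34, and that of all genes tested was 0.01. Fewer expressing cells and less RNA per cell cannot be told apart in such bulk libraries.

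**Figure D1:**
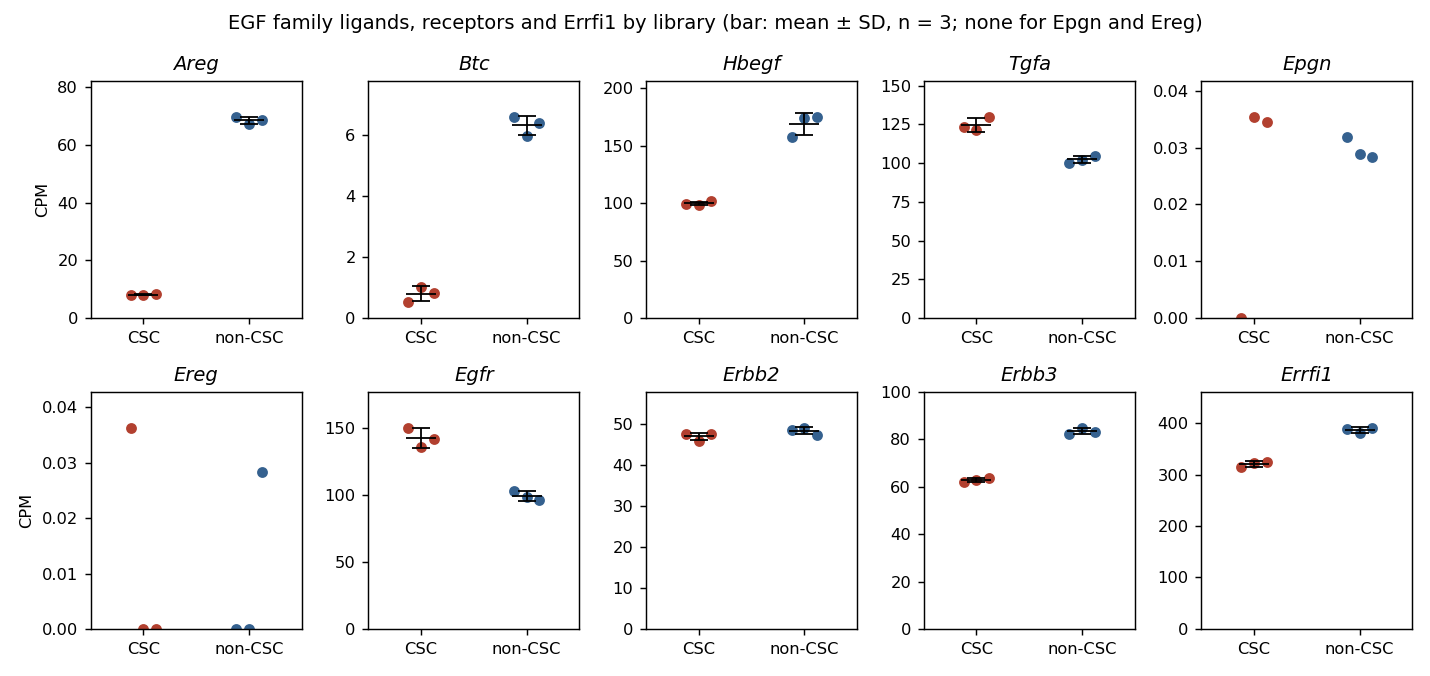
CPM of each of the 10 members in each library, with CSC left and non-CSC right in every panel; points are libraries, and bars give mean ± SD (n = 3) for the 8 tested genes. The groups are separated for Areg, Btc, Hbegf, Tgfa, Egfr, Erbb3 and Errfi1, meet for Erbb2, and Ereg and Epgn stand at 0 or 1 count a library.

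Among the ligands, Areg and Btc had the largest log2 fold changes, within the error of Btc of each other. Areg lies on chromosome 5 at 91139599 to 91148432 (GRCm38, plus strand) and encodes amphiregulin, which binds EGFR. It was at 8.09, 7.99 and 8.51 CPM in the CSC libraries and at 69.5, 67.1 and 68.6 CPM in the non-CSC libraries. All 3 CSC libraries lay far below all 3 non-CSC libraries, and the libraries within a group were close to each other. Areg averaged 8.20 ± 0.278 CPM in CSC and 68.4 ± 1.21 CPM in non-CSC (SD, n = 3 each), and the log2 fold change was -3.06 ± 0.06 (SE; edgeR adjusted p = 1.76e-22). The counts behind these levels were 223, 226 and 247 in CSC and 2182, 2329 and 2426 in non-CSC. Of all 17630 genes tested, 56 had a log2 fold change as low as that of Areg or lower.

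Btc, the gene of betacellulin, which binds EGFR and ErbB4, lies on the same chromosome at 91357261 to 91402994 (minus strand). It was expressed at a much lower level than Areg in both groups. Btc was at 0.544, 1.03 and 0.827 CPM in CSC and at 6.57, 5.97 and 6.37 CPM in non-CSC. The groups did not overlap, and the CSC libraries differed among themselves by more in proportion than the non-CSC libraries did. The level averaged 0.799 ± 0.242 CPM in CSC and 6.30 ± 0.305 CPM in non-CSC (SD, n = 3 each), and the log2 fold change was -2.97 ± 0.15 (SE; edgeR adjusted p = 4.97e-14). Its CSC value rests on 15, 29 and 24 counts, against 206, 207 and 225 counts in non-CSC.

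The promoters of Areg and Btc, the members that fell the most, and of Egfr, the member that rose the most, are shown to compare what stands just before the start of each gene. Both windows of Errfi1 are added, chosen after its motif matches were seen, because the second holds the same pair of motifs as Areg. The sequences are from RefSeq (GRCm38.p6), 250 bases before to 50 bases after a start, read 5′ to 3′ on the strand of the gene. Promoters were present for 7 of the 10 members, in 8 windows, and there was none for Ereg, Hbegf and Erbb3. Capitals mark matches, on either strand, to 4 motifs: TGACGTCA (the cyclic AMP response element), TGANTCA (AP-1), TGATGNAA (the C/EBP-ATF composite site) and TATAAA (the TATA box). None of the marked matches overlap each other. The windows are chr5:91139349-91139648 (plus strand) for Areg, chr5:91402945-91403244 (minus strand) for Btc, chr11:16751953-16752252 (plus strand) for Egfr and chr4:150853546-150853845 and chr4:150854820-150855119 (both plus strand) for Errfi1. The second Errfi1 window belongs to a start at 150855070, inside the span that GENCODE gives the gene. The upstream window belongs to a start at 150853796 and ends before that span, which begins at 150853919. The last bases of the second window were found in a GENCODE transcript of Errfi1, and those of the upstream window were not.
Areg: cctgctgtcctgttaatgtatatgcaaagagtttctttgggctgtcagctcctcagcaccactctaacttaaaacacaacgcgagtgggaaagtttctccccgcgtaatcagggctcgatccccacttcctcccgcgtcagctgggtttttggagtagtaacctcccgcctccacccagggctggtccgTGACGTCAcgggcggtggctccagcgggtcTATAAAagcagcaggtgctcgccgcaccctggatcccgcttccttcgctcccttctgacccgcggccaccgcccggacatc
Btc: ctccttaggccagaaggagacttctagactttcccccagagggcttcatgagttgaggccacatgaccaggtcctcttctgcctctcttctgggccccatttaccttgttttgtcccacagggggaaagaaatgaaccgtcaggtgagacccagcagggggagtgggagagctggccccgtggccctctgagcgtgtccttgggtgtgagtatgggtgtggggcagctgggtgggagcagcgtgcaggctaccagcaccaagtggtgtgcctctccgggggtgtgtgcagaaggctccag
Egfr: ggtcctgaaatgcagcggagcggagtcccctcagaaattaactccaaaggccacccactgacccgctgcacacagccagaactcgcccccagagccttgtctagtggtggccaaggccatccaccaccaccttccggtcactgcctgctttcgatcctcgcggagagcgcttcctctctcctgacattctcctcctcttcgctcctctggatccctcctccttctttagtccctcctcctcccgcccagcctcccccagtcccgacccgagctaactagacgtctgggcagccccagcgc
Errfi1, upstream window: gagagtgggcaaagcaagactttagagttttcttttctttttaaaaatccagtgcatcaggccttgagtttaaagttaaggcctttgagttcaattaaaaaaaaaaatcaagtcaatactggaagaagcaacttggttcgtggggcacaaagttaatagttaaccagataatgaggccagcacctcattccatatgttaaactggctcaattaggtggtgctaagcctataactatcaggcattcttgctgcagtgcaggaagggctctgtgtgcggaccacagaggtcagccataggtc
Errfi1, second window: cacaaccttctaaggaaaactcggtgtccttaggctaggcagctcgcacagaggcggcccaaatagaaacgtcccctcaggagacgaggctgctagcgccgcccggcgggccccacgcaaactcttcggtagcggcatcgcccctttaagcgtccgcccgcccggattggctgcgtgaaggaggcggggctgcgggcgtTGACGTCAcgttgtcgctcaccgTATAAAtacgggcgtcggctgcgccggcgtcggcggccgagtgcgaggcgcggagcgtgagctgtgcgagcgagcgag

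The Areg window held TGACGTCA 61 to 54 bases before the start and TATAAA 31 to 26 bases before it. The second Errfi1 window held the same pair of motifs in the same order, TGACGTCA at 51 to 44 and TATAAA at 28 to 23 bases before its start at 150855070. The upstream window, which matched no GENCODE transcript of the gene, held none of the 4. Over all 32851 promoter windows, 1.79% held TGACGTCA and 13.6% held TATAAA. No match to any of the 4 motifs was found in the Btc and Egfr windows or in those of Erbb2 and Tgfa. The Epgn window held TATAAA alone, and its last bases were found in no GENCODE transcript of that gene. TGANTCA and TGATGNAA, which 7.81% and 3.97% of all windows held, were not found in any member's window. These matches describe the letters of the windows.

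Hbegf, which encodes heparin-binding EGF-like growth factor, a ligand of EGFR and ErbB4, lies on chromosome 18 at 36504927 to 36515805. It was at 99.5, 98.7 and 102 CPM in CSC and at 157, 175 and 175 CPM in non-CSC. Every CSC library lay below every non-CSC library, and non-CSC replicate 1 was the lowest of its group. Hbegf averaged 99.96 ± 1.56 CPM in CSC and 169 ± 9.96 CPM in non-CSC (SD, n = 3 each), and the log2 fold change was -0.76 ± 0.04 (SE; edgeR adjusted p = 1.54e-13).

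Of the 6 member ligands, Tgfa was the one called higher in CSC. It encodes transforming growth factor alpha, an EGFR ligand, and lies on chromosome 6 at 86195223 to 86275719. The level was 124, 121 and 130 CPM in CSC and 100.4, 102 and 105 CPM in non-CSC. The lowest CSC library was above the highest non-CSC library. The log2 fold change was 0.28 ± 0.04 (SE; edgeR adjusted p = 6.48e-07).

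Ereg (epiregulin, a ligand of EGFR and ErbB4) and Epgn (epigen, a ligand of EGFR) were at the edge of detection. Ereg had 1, 0 and 0 counts in CSC and 0, 0 and 1 in non-CSC, and Epgn had 0, 1 and 1 in CSC and 1, 1 and 1 in non-CSC. A count of 0 allows a level of up to 0.103 to 0.109 CPM in a CSC library and 0.0849 to 0.0956 CPM in a non-CSC library (3 counts per library, counting error only). Both genes were at or under that floor, and a difference between the groups was not detectable at this depth.

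Areg, Btc, Ereg and Epgn lie next to each other on chromosome 5, so the genes around them were examined. The protein-coding genes from the fifth before Epgn to the fifth after Btc numbered 14 with the members, and 8 of the others were tested. Of these 8, 3 were higher, 3 lower and 2 not called, beside 33.4% higher and 33.1% lower among all genes tested, and their median log2 fold change was -0.05. On the upstream side lie chemokine genes that attract neutrophils. Cxcl15 averaged 10.2 ± 0.570 CPM in CSC and 3.61 ± 0.305 CPM in non-CSC, and Cxcl1 averaged 10.6 ± 0.348 CPM in CSC and 4.49 ± 0.641 CPM in non-CSC (SD, n = 3 each). Their log2 fold changes were 1.505 and 1.24, opposite in sign to those of Areg and Btc. Cxcl3 rose by 0.38 and Cxcl2 fell by 0.34 on the log2 scale, and Mthfd2l, the gene nearest to Epgn on that side, was not called (log2 fold change 0.00049, edgeR adjusted p = 0.997). On the other side of Btc, Rchy1 fell by 0.39 and Parm1 by 0.20 on the log2 scale (edgeR adjusted p = 8.11e-06 and 0.0476), and Cdkl2 was not called (log2 fold change -0.11).

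**Figure D2:**
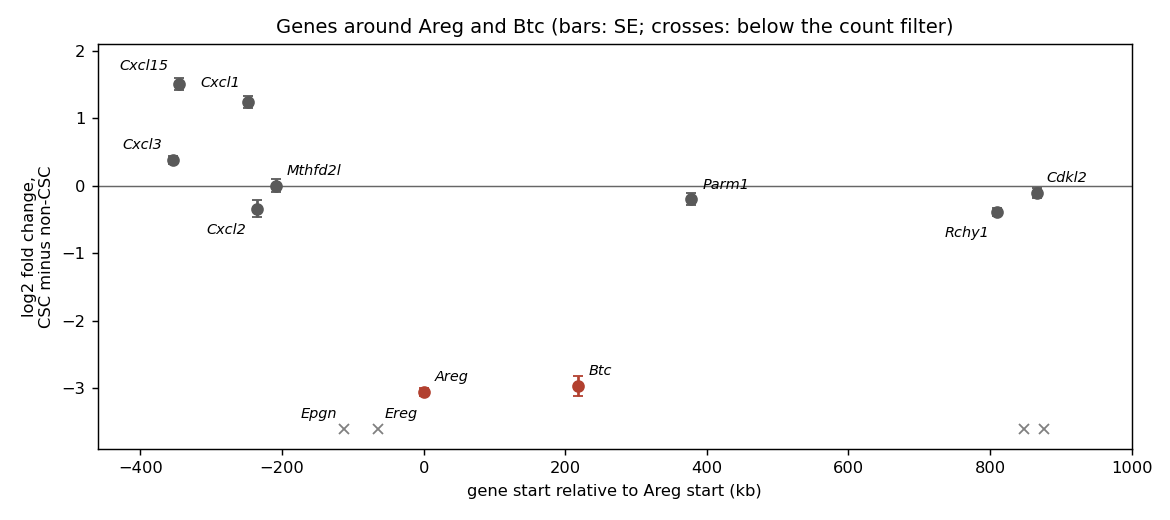
Log2 fold change (CSC minus non-CSC, bars SE) of the tested protein-coding genes around Areg, by the distance of each start from the Areg start in kilobases; crosses at the bottom are genes below the count filter. Areg at -3.06 and Btc at -2.97 lie apart from the other tested genes shown, which run from -0.39 (Rchy1) to 1.505 (Cxcl15).

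The wider surroundings of the members were set beside the all-gene median of 0.01. The 30 tested genes nearest to Areg in order along the chromosome had a median log2 fold change of -0.0061, and those nearest to Btc had 0.02. Of the 30 around Areg, 1 gene, which was not Btc, had a lower log2 fold change than Areg. Around Btc, 2 were lower than Btc, 1 of them Areg. The medians around the other members were -0.05 for Hbegf, 0.05 for Tgfa, 0.20 for Egfr, 0.13 for Erbb2, 0.14 for Erbb3 and -0.08 for Errfi1. The quartiles around Egfr were -0.16 and 0.45, and 23 of those 30 genes had a lower log2 fold change than Egfr at 0.52. Of the 30 genes around Erbb3, 1 was lower than Erbb3.

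Among the receptors, Egfr rose, Erbb3 fell and Erbb2 was not called. Egfr, which encodes the receptor for all 6 member ligands, lies on chromosome 11 at 16752203 to 16918158. It was at 149.98, 135 and 142 CPM in CSC and at 103, 98.1 and 96.0 CPM in non-CSC. The groups did not overlap. Egfr averaged 142 ± 7.27 CPM in CSC and 99.1 ± 3.72 CPM in non-CSC (SD, n = 3 each), and the log2 fold change was 0.52 ± 0.04 (SE; edgeR adjusted p = 1.26e-10).

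Erbb3 encodes a receptor that binds neuregulins, has little kinase activity of its own and signals through its partners. It lies on chromosome 10 at 128567523 to 128589652. The level was 61.9, 63.0 and 63.8 CPM in CSC and 82.2, 84.8 and 83.3 CPM in non-CSC, again without overlap. The log2 fold change was -0.41 ± 0.04 (SE; edgeR adjusted p = 4.16e-09).

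Erbb2, on chromosome 11 at 98412470 to 98437716, encodes the receptor that has no known ligand and is the preferred partner of the others. It was at 47.4, 45.9 and 47.5 CPM in CSC and at 48.6, 49.0 and 47.3 CPM in non-CSC, and the groups overlapped. The log2 fold change was -0.04 ± 0.04 (SE; edgeR adjusted p = 0.416), and its sign changed with upper-quartile scaling (0.02) and library-size scaling (0.02).

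Errfi1 encodes MIG6, which binds the EGFR kinase and inhibits it and which EGFR signalling itself is known to induce. It lies on chromosome 4 at 150853919 to 150868892. It was at 315, 322 and 325 CPM in CSC and at 388, 379.8 and 391 CPM in non-CSC. Every CSC library was below every non-CSC library. The log2 fold change was -0.27 ± 0.03 (SE; edgeR adjusted p = 3.42e-07). Per kilobase of exon, the ratio of Errfi1 to Egfr was 6.63, 7.51 and 7.25 in CSC and 11.9, 12.2 and 12.9 in non-CSC. This within-library ratio, which does not depend on the scaling, was lower in all 3 CSC libraries, with a log2 difference of -0.79 (exact two-sided permutation test, p = 0.1, the smallest that 3 against 3 libraries allow).

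**Figure D3:**
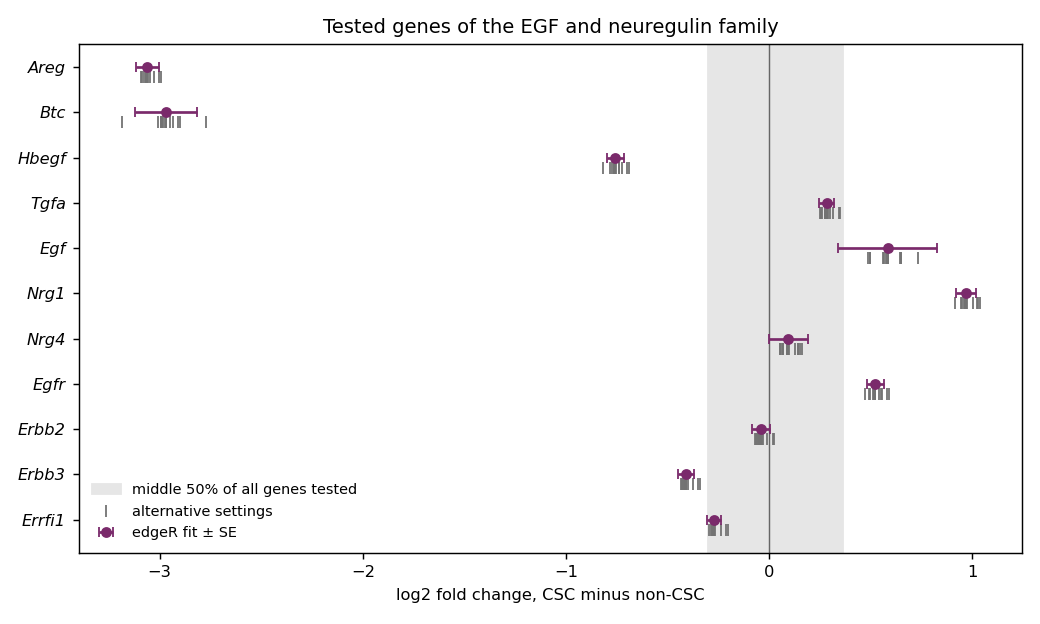
Log2 fold change (CSC minus non-CSC) of the tested genes of the EGF and neuregulin family. Points with bars are the edgeR values ± SE, ticks are the same gene under up to 15 alternative settings, and the grey band holds the middle 50% of all genes tested. Egf has no tick for the mean of at least 50 counts, which it did not reach. Areg (-3.06) and Btc (-2.97) lie far left of the band, and only Erbb2 has ticks on both sides of 0 among the members.

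To set the genes beside each other, levels were divided by exon length and expressed as RPKM (CPM per kilobase of exon). In CSC the order from high to low was Errfi1 (89.5 ± 1.48 RPKM), Hbegf (20.7 ± 0.324), Tgfa (19.2 ± 0.677), Egfr (12.6 ± 0.642), Erbb3 (10.5 ± 0.157), Erbb2 (9.01 ± 0.171), Areg (6.75 ± 0.229) and Btc (0.177 ± 0.0534 RPKM; SD, n = 3). In non-CSC it was Errfi1 (108 ± 1.58 RPKM), Areg (56.3 ± 0.999), Hbegf (34.96 ± 2.06), Tgfa (15.8 ± 0.339), Erbb3 (13.9 ± 0.216), Erbb2 (9.27 ± 0.167), Egfr (8.75 ± 0.328) and Btc (1.39 ± 0.0674 RPKM; SD, n = 3). Areg thus stood below the 3 receptors in CSC and above them in non-CSC. Egfr stood above Erbb2 and Erbb3 in CSC and below Erbb3 in non-CSC. Erbb2 lay above Egfr within each non-CSC library, at 9.33, 9.41 and 9.09 RPKM against 9.11, 8.66 and 8.48 RPKM. The ranges of both genes met, and their order depends on the length used.

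The ligand levels summed to 45.9 to 48.2 RPKM in the CSC libraries and 107 to 110.3 RPKM in the non-CSC libraries. Areg made up 14.3% to 14.5% of that sum in CSC and 50.9% to 53.6% in non-CSC. Hbegf made up 44.2% in CSC and 32.2% in non-CSC, and Tgfa 41.0% in CSC and 14.6% in non-CSC, on average. The receptor levels summed to 31.2 to 32.6 RPKM in CSC and 31.4 to 32.2 RPKM in non-CSC, so the groups overlapped in the sum while its makeup differed. Egfr made up 38.3% to 40.6% of the receptor sum in CSC and 26.9% to 28.4% in non-CSC, and Erbb3 31.5% to 33.5% in CSC and 42.6% to 44.1% in non-CSC. The length used matters, most for Hbegf and Tgfa. With the longest transcript in place of all exons, Hbegf averaged 34.6 RPKM in CSC and 58.5 RPKM in non-CSC. That puts its mean above that of Areg in non-CSC, though Areg stayed above Hbegf in non-CSC replicate 1. The share of Areg was then 9.76% in CSC and 40.5% in non-CSC. Egfr and Erbb2 then averaged 9.71 and 9.64 RPKM in non-CSC, the reverse of their order above. The Errfi1 length changed from 3582 to 3043 bases, so its level and its ratio to Egfr also depend on the length used.

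**Figure D4:**
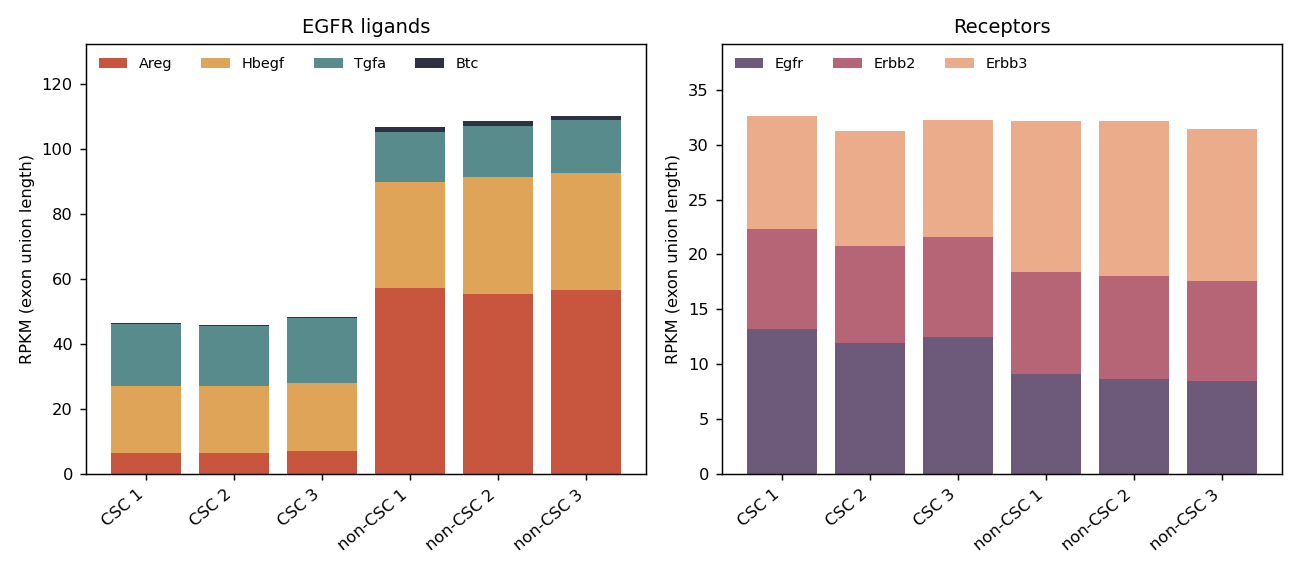
Stacked RPKM (exon union length) per library of the ligands Areg, Hbegf, Tgfa and Btc (left panel) and of the receptors Egfr, Erbb2 and Erbb3 (right panel), CSC libraries left and non-CSC libraries right. The ligand stack is 45.9 to 48.2 RPKM in CSC and 107 to 110.3 RPKM in non-CSC, with the Areg block the part that differs the most, while the receptor stacks overlap in height.

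The remaining genes of the family were Egf, the neuregulin genes and Erbb4. Nrg1, which encodes neuregulin 1, a ligand of ErbB3 and ErbB4, was at 79.0, 79.6 and 80.1 CPM in CSC and at 44.3, 39.6 and 37.97 CPM in non-CSC. The groups did not overlap, and the log2 fold change was 0.97 ± 0.05 (SE; edgeR adjusted p = 4.97e-14), opposite in sign to that of the receptor gene Erbb3. Egf was low, at 0.653, 0.954 and 0.965 CPM in CSC and 0.637, 0.577 and 0.509 CPM in non-CSC. Its log2 fold change was 0.58 ± 0.24 (SE; edgeR adjusted p = 0.0391), a call that single libraries decided. The call was kept without CSC replicate 1 (edgeR adjusted p = 0.0176) and without non-CSC replicate 1 (0.0462), and lost otherwise, with an edgeR adjusted p of 0.132 without CSC replicate 2, 0.142 without CSC replicate 3, 0.0765 without non-CSC replicate 2 and 0.126 without non-CSC replicate 3. Exons of other genes cover 9.82% of those of Egf. Nrg4 averaged 5.80 ± 0.348 CPM in CSC and 5.44 ± 0.399 CPM in non-CSC (SD, n = 3 each) and was not called (edgeR adjusted p = 0.385). Nrg2 had at most 2 counts a library, Nrg3 had 0 in all 6, and Erbb4 had 1 count in CSC replicate 1 and 0 elsewhere.

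Genes of ligand shedding moved in both directions. Of 14 listed genes 12 were tested, 5 higher, 5 lower and 2 not called, beside 33.4% higher and 33.1% lower among all genes tested, with a median log2 fold change of -0.0028 against 0.01 for all genes tested. Bace1, a protease that cuts neuregulin 1, averaged 61.5 ± 0.861 CPM in CSC and 34.3 ± 1.48 CPM in non-CSC. Adam9, a sheddase gene, averaged 180 ± 1.55 CPM in CSC and 283 ± 0.605 CPM in non-CSC. Rhbdf2, which encodes the iRhom2 protein needed for the maturation of ADAM17, averaged 92.8 ± 3.88 CPM in CSC and 147 ± 3.52 CPM in non-CSC, and Nrd1, whose product nardilysin enhances ectodomain shedding, 145 ± 5.39 CPM in CSC and 201 ± 2.04 CPM in non-CSC (SD, n = 3 each). Adam17 itself, the main sheddase of Areg, Hbegf and Tgfa precursors, was not called, at 49.5 ± 1.39 CPM in CSC and 50.7 ± 2.15 CPM in non-CSC (edgeR adjusted p = 0.506), and was chosen after its value was seen. Of 8 trafficking and binding partners 7 were tested, 2 higher, 3 lower and 2 not called, against the same shares of all genes, with a median of 0.03. Among them the tetraspanin gene Cd9, whose product associates with the HB-EGF precursor, rose by 0.55, and Cnih1 fell by 0.35, Cd82 by 0.20 and Hsp90ab1 by 0.15 on the log2 scale.

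Genes of signalling next to the receptor were split, with 19 of 20 tested, 6 higher, 8 lower and 5 not called, and a median log2 fold change of -0.03. This is 73.7% called, near the 66.5% of all genes tested. Stat5a, a transcription factor gene that growth factor and prolactin receptors act on, averaged 139 ± 1.89 CPM in CSC and 26.9 ± 1.65 CPM in non-CSC (SD, n = 3 each), and the log2 fold change was 2.37 ± 0.05 (SE; edgeR adjusted p = 4.78e-22). Sos2, a RAS exchange factor gene, fell by 0.95, the docking protein gene Gab1 by 0.83 and the phospholipase gene Plcg1 by 0.63 on the log2 scale.

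Genes that turn over or inhibit the receptors were lower more often than higher. All 23 were tested, 3 higher, 14 lower and 6 not called, with a median log2 fold change of -0.23 against 0.01 for all genes tested, of which 33.1% were called lower. This list too was chosen with earlier results of these data known, so its direction is not independent evidence. With upper-quartile or library-size scaling, 6 were higher and 12 lower, while the genes called over the whole table became 6700 higher and 5066 lower, and 6781 higher and 4970 lower. Socs5, a suppressor of EGFR signalling, averaged 52.9 ± 0.229 CPM in CSC and 102 ± 1.62 CPM in non-CSC, and Lrig1, a membrane protein that promotes the degradation of ErbB receptors, 20.03 ± 0.987 CPM in CSC and 31.5 ± 0.3996 CPM in non-CSC (SD, n = 3 each). Cblc, an ubiquitin ligase gene, fell by 0.65 on the log2 scale. The receptor phosphatase gene Ptprk rose by 0.64.

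Genes induced by the ERK pathway, and the feedback inhibitors of that pathway, were mostly lower. Of 28 listed genes 26 were tested, 4 higher, 17 lower and 5 not called, beside 33.4% higher and 33.1% lower among all genes tested, with a median log2 fold change of -0.59 against 0.01. The list was drawn up with an earlier result on immediate early genes of these libraries known, so its direction is not independent evidence. Fosl1, an AP-1 subunit gene, averaged 14.0 ± 1.65 CPM in CSC and 44.9 ± 4.22 CPM in non-CSC, Egr1, a zinc finger transcription factor gene, 24.3 ± 2.38 CPM in CSC and 77.1 ± 2.81 CPM in non-CSC, and Dusp5, an ERK phosphatase gene, 20.8 ± 1.03 CPM in CSC and 52.6 ± 0.957 CPM in non-CSC (SD, n = 3 each). Ier3 was among the 4 that rose, at 189 ± 3.11 CPM in CSC and 59.4 ± 1.69 CPM in non-CSC (SD, n = 3 each). The feedback inhibitor genes Spry4, Dusp6 and Spry1, chosen after their values were seen, had log2 fold changes of -0.89, -0.93 and 0.38.

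**Figure D5:**
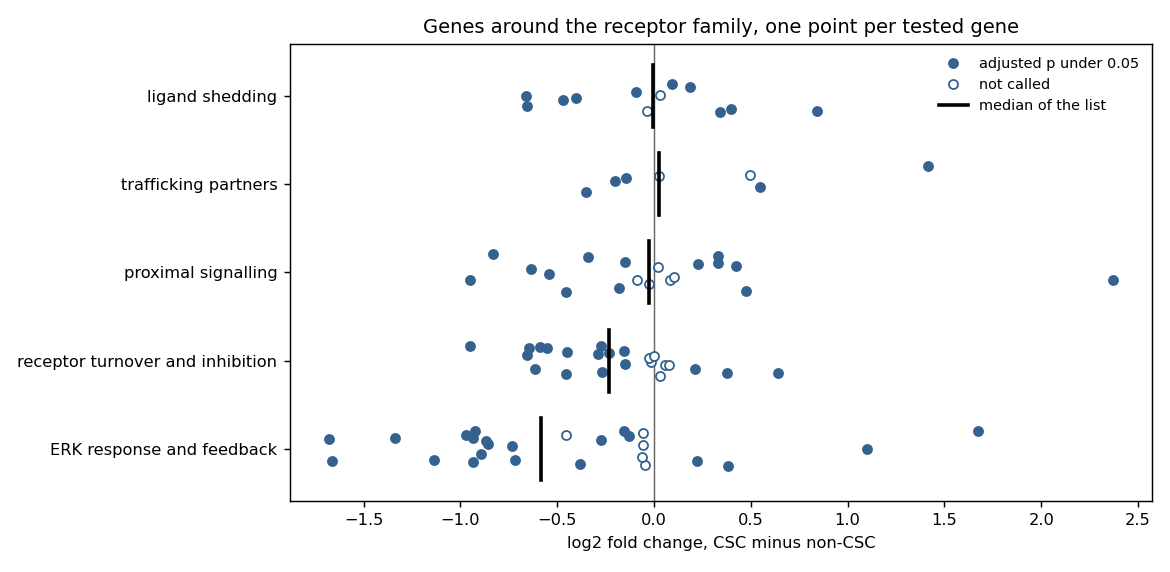
Log2 fold change (CSC minus non-CSC) of every tested gene of 5 lists around the receptors, a point per gene, filled at an adjusted p under 0.05 and open otherwise; black bars are list medians and the vertical spread is for legibility. The medians run from -0.59 for the ERK response and feedback list to 0.03 for the trafficking partners, and the point at 2.37 is Stat5a.

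Genes with a pattern like that of Areg were sought among tested genes with a mean of at least 5 CPM. Predicted and clone symbols were left out, and Btc, at a mean of 3.55 CPM, was below the limit. Nearest over the 6 libraries, by the root mean square difference of centred log2 CPM, were Nrcam (0.11), Khdc1a (0.11) and Gstp3 (0.12). Nrcam averaged 1.74 ± 0.0296 CPM in CSC and 12.9 ± 0.116 CPM in non-CSC, Khdc1a 4.89 ± 0.353 CPM in CSC and 45.9 ± 2.63 CPM in non-CSC, and Gstp3 2.76 ± 0.194 CPM in CSC and 26.1 ± 1.03 CPM in non-CSC (SD, n = 3 each). Their log2 fold changes were -2.89, -3.23 and -3.24, beside -3.06 for Areg, a closeness that follows from how they were chosen.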

How the data were processed

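RNA was sequenced from 3 CSC and 3 non-CSC libraries of EO771 cells, grouped by their titles. The authors deposited raw read counts per gene symbol, not normalized. The build was GRCm38, as the submitters' processing notes state, and the aligner, counter, annotation and strand setting were not given in the sources used here. Without the strand setting, reads of overlapping genes cannot be told apart; other genes cover at most 3.42% of the exon bases of any member (GENCODE M21).

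Counts were filtered with filterByExpr, scaled by TMM and tested with edgeR 4.0.16 (quasi-likelihood, robust, no covariate; limma 3.58.1, DESeq2 1.42.0 and R 4.3.3 for alternatives), with Benjamini-Hochberg adjustment at 0.05 and checked on simulated counts. An SE is the log2 fold change divided by the square root of F. CPM use TMM-scaled library sizes, and RPKM the union of exons. Replicates differed beyond sampling noise (chi-square per degree of freedom 3.21 to 7.30). Levels limited by few counts carry counting error, and reads are not independent molecules.

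The members and lists were chosen with earlier results of these data known. The genes named are the members, the other family genes, from each list up to 4 called genes with the largest changes and a mean of at least 5 CPM, the chromosome 5 neighbours and the 3 genes nearest to Areg; others are said to be chosen after their values were seen. A planned ratio of Areg to Ereg was left out because Ereg had at most 1 count a library, and protein sequences were not used here. The alternatives were other scalings, filters and tests, a replicate block, leaving out each library, and the longest transcript as length.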

Additional observations from a re-analysis of the deposited data

How the results depend on the processing

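The counts of 2 members higher and 5 lower in CSC held under all 15 alternatives of scaling, filter, test, block and left-out library. The log2 fold change ran from -3.09 to -2.99 for Areg, -3.19 to -2.77 for Btc, -0.82 to -0.69 for Hbegf, 0.25 to 0.35 for Tgfa, 0.47 to 0.59 for Egfr, -0.43 to -0.34 for Erbb3 and -0.29 to -0.20 for Errfi1. Erbb2, not called, turned to 0.017 with upper-quartile and 0.025 with library-size scaling. Genes called higher among the other family genes numbered 1, not 2, with no low-count filter, a mean of at least 50 counts, the replicate block and DESeq2, and 1 to 2 when a library was left out; the gene lost was Egf. In the receptor turnover list 6 were higher with upper-quartile and with library-size scaling and 5 with a mean of at least 50 counts, against 3. In the shedding list 3 were higher with DESeq2, against 5. Among the trafficking partners 1 was higher with a mean of at least 50 counts, against 2, since Muc4 is below that mean. The filter of a mean of at least 50 counts left 13482 genes to be tested, and Muc4 and Egf were among the genes it removed. For the other moves the cause was not tested.

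Same-numbered libraries of the groups did not deviate together (correlations of -0.0257 to -0.0112). These correlations cannot tell whether such libraries came from the same culture, which is not stated. The replicate block gave 11680 genes differing, against 11732, and changed no member's call. Depth limits Ereg, Epgn, Nrg2, Nrg3 and Erbb4, all at 0 to 2 counts a library.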
